A study of Mus musculus with 8 samples.

Results

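The osteocalcin genes Bglap, Bglap2 and Bglap3, the matrix Gla protein gene Mgp, and Ggcx and Vkorc1, which encode the vitamin K dependent carboxylase and the reductase that renews its cofactor, were followed through the cell types of mouse femurs and tibiae. They were taken by symbol, 1 row each in all 8 count matrices, and are 6 of 32285 genes. Each matrix holds the single-cell RNA-seq of 1 female mouse, made with 3′ droplet chemistry from bones stripped of periosteum, flushed of marrow, digested and depleted of haematopoietic cells with magnetic beads. There were 4 groups of 2 mice, and the study describes mutants and controls as sisters, while the labels give replicate numbers without saying which mice shared a litter. Control mice were Sox4fl/fl Sox11fl/fl Sox12fl/fl, aged 7 or 13 weeks, so they carried the same floxed alleles as the mutants but no Cre. SOXCOsxCre mutants were Sox4fl/fl Sox11fl/fl Sox12fl/fl OsxCre at the same ages, which removes the 3 SOXC transcription factor genes where Cre is active. OsxCre expresses Cre from the promoter of Osterix (Sp7), a gene of osteoblast precursors and their progeny, and doxycycline in the food kept it silent until the third week of life. Because no group carried OsxCre without the floxed genes, loss of the SOXC genes and presence of the Cre transgene cannot be told apart in these groups.

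Osteocalcin is a small secreted protein of mature osteoblasts that binds bone mineral and also circulates. Like matrix Gla protein, which is made by chondrocytes and vascular smooth muscle and keeps soft tissues from calcifying, it carries glutamates that γ-glutamyl carboxylase (Ggcx) converts to the calcium-binding residue Gla. Each round of carboxylation oxidises vitamin K, and vitamin K epoxide reductase (Vkorc1) returns it to the reduced form.

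The 3 osteocalcin genes lie side by side on the minus strand of chromosome 3 in GRCm38, with Bglap at chr3:88383501-88384464, Bglap2 at chr3:88377736-88378699 and Bglap3 at chr3:88368616-88372743, each with 4 exons. Their coding sequences are shown because the counts of the 3 genes are compared throughout and depend on telling them apart. All are 288 bases long including the stop codon, and capitals in Bglap2 and Bglap3 mark the bases that differ from Bglap. The sequences were read from the GENCODE vM21 transcripts of GRCm38.
Bglap: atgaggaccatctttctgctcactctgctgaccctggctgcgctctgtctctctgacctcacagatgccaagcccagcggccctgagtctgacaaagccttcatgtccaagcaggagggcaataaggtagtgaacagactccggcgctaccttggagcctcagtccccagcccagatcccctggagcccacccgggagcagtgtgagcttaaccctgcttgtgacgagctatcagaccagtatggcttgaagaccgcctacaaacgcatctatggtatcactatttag
Bglap2: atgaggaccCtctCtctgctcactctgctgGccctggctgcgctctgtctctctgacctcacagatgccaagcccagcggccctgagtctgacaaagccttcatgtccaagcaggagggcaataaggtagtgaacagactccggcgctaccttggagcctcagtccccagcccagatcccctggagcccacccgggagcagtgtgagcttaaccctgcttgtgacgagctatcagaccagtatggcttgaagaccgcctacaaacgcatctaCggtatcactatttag
Bglap3: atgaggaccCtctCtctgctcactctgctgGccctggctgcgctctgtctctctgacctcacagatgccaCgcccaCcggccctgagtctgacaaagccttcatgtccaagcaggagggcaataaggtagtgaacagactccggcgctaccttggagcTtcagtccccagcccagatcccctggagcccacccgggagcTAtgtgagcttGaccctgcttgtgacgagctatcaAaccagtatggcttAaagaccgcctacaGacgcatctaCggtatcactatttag
Bglap and Bglap2 differed at 4 of 288 bases (98.6% identity), Bglap and Bglap3 at 13 (95.5%), and Bglap2 and Bglap3 at 9 (96.9%). The counts come from the 3′ end, so the last 400 bases of each transcript were cut into windows of 90 bases. Of these windows, 68.2% were the same in Bglap and Bglap2, so reads from those windows cannot be assigned to either gene and the split between Bglap and Bglap2 is uncertain. No such window of Bglap3, Mgp or Ggcx was shared with another gene. Mgp lies at chr6:136872435-136875823 on the minus strand, Ggcx at chr6:72414308-72430712 on the plus strand and Vkorc1 at chr7:127893063-127895617 on the minus strand. Vkorc1 overlaps the same-strand gene model Gm21974, which shares 41.2% of its last windows and has no row in the matrices.

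The Bglap promoter is shown because Bglap counts dominated the osteoblasts. The 250 bases before the start of the RefSeq gene, chr3:88384467-88384716 on the minus strand of GRCm38.p6, are printed 5′ to 3′, and capitals mark a RUNX core (ACCACA), a homeodomain core (CAATTA) and a TATA box (TATAAA).
Bglap promoter: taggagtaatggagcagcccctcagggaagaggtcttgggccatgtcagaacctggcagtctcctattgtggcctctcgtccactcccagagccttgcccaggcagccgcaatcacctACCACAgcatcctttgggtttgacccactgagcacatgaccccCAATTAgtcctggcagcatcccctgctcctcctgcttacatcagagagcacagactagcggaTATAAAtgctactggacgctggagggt
The 3 motifs started 132, 89 and 27 bases before the start site. They were searched on both strands, and 14%, 7.17% and 12.4% of 32851 mouse promoter windows of the same length contained them. The SOX cores ACAAAG and AACAAT were not in this window, and 16.5% and 9.42% of promoter windows held them. None of the 5 motifs was in the windows of Bglap3, Ggcx or Vkorc1, and those of Bglap2 and Mgp were not analysed here.

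After the cell limits of the study and removal of doublets, 6410 to 8753 cells per mouse remained, from libraries of 81894604 to 156090286 UMIs, and at most 31 cell barcodes (0.344%) were shared by any 2 libraries. Replicate 1 was sequenced more deeply than replicate 2 in each group. Cells were clustered without the 6 genes and without Sox4, Sox11 and Sox12, and 11 types were named from other markers. They include Sca1+ and Lepr+ mesenchymal stromal cells (MSC), Lepr+ osteoprogenitors (OP), preosteoblasts (preOB), osteoblasts (OB), growth plate chondrocytes (GPC), pericytes and endothelial, erythroid and haematopoietic progenitor cells, each called "-like". Sox4, one of the deleted genes, fell in mutants by 1.56 on the log2 scale in OB-like cells (adjusted p = 0.000743), from 178 to 202 CPM in controls to 51.1 to 79.7 CPM in mutants, by 1.39 in preOB-like (adjusted p = 0.000933) and by 1.32 in Lepr+ OP-like (adjusted p = 0.000136) as in Lepr+ MSC-like cells (adjusted p = 0.00247). It did not pass in the other 7 types, where the difference ran from -1.19 in Sca1+ MSC-like to 0.16 in haematopoietic progenitor-like cells. Levels in CPM are the UMIs of a gene per 1000000 UMIs of all genes in the cells of 1 type in 1 mouse. They are not scaled by transcript length because each UMI tags a 3′ end.

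Bglap and Bglap2 were by far highest in OB-like cells, at 68293 ± 9250.1 CPM for Bglap and 32799 ± 5261 CPM for Bglap2 in control mice (SD, n = 4). Bglap3 was far less abundant in the same cells, at 1466 ± 528 CPM. The 3 genes together made up 11.7% and 8.71% of all OB-like UMIs in the 7-week controls, 14.7% and 10.9% in the 7-week mutants, 11.4% and 9.27% in the 13-week controls and 18.4% and 12.1% in the 13-week mutants. Replicate 1, the deeper library, had the higher share in each group. OB-like cells held a median of 97.5% of a mouse's Bglap UMIs, 97.5% of its Bglap2 UMIs and 92.3% of its Bglap3 UMIs.

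The next level down was in preOB-like cells, which express matrix genes such as Postn before full osteoblast differentiation. Control mice had 3016 ± 974 CPM of Bglap, 1730.2 ± 533 CPM of Bglap2 and 185 ± 80.8 CPM of Bglap3 there (SD, n = 4). OB-like cells exceeded preOB-like cells in 8 of 8 mice, by 4.21, 4.01 and 2.90 log2 units on the log2(CPM + 1) scale. The exact two-sided sign-flip permutation p was 0.00781, the smallest that 8 mice allow. Adjusted over the 10 neighbouring pairs of types for each gene, it was 0.0781 for Bglap and 0.0391 for Bglap2 and Bglap3. Below preOB-like cells, Bglap in the other 9 types had control means between 746 and 1793 CPM, and no neighbouring pair among them passed the test. The lowest of these levels were in erythroid-like and haematopoietic progenitor-like cells. Bglap2 passed for Sca1+ MSC-like over Lepr+ OP-like, pericyte-like over Lepr+ MSC-like and endothelial-like over hypertrophic GPC-like cells. Each held in 7 of 8 mice (same sign-flip test, adjusted p = 0.0391). Bglap3 passed for Lepr+ OP-like over GPC-like cells in 8 of 8 mice (same test, adjusted p = 0.0391).

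**Figure D1:**
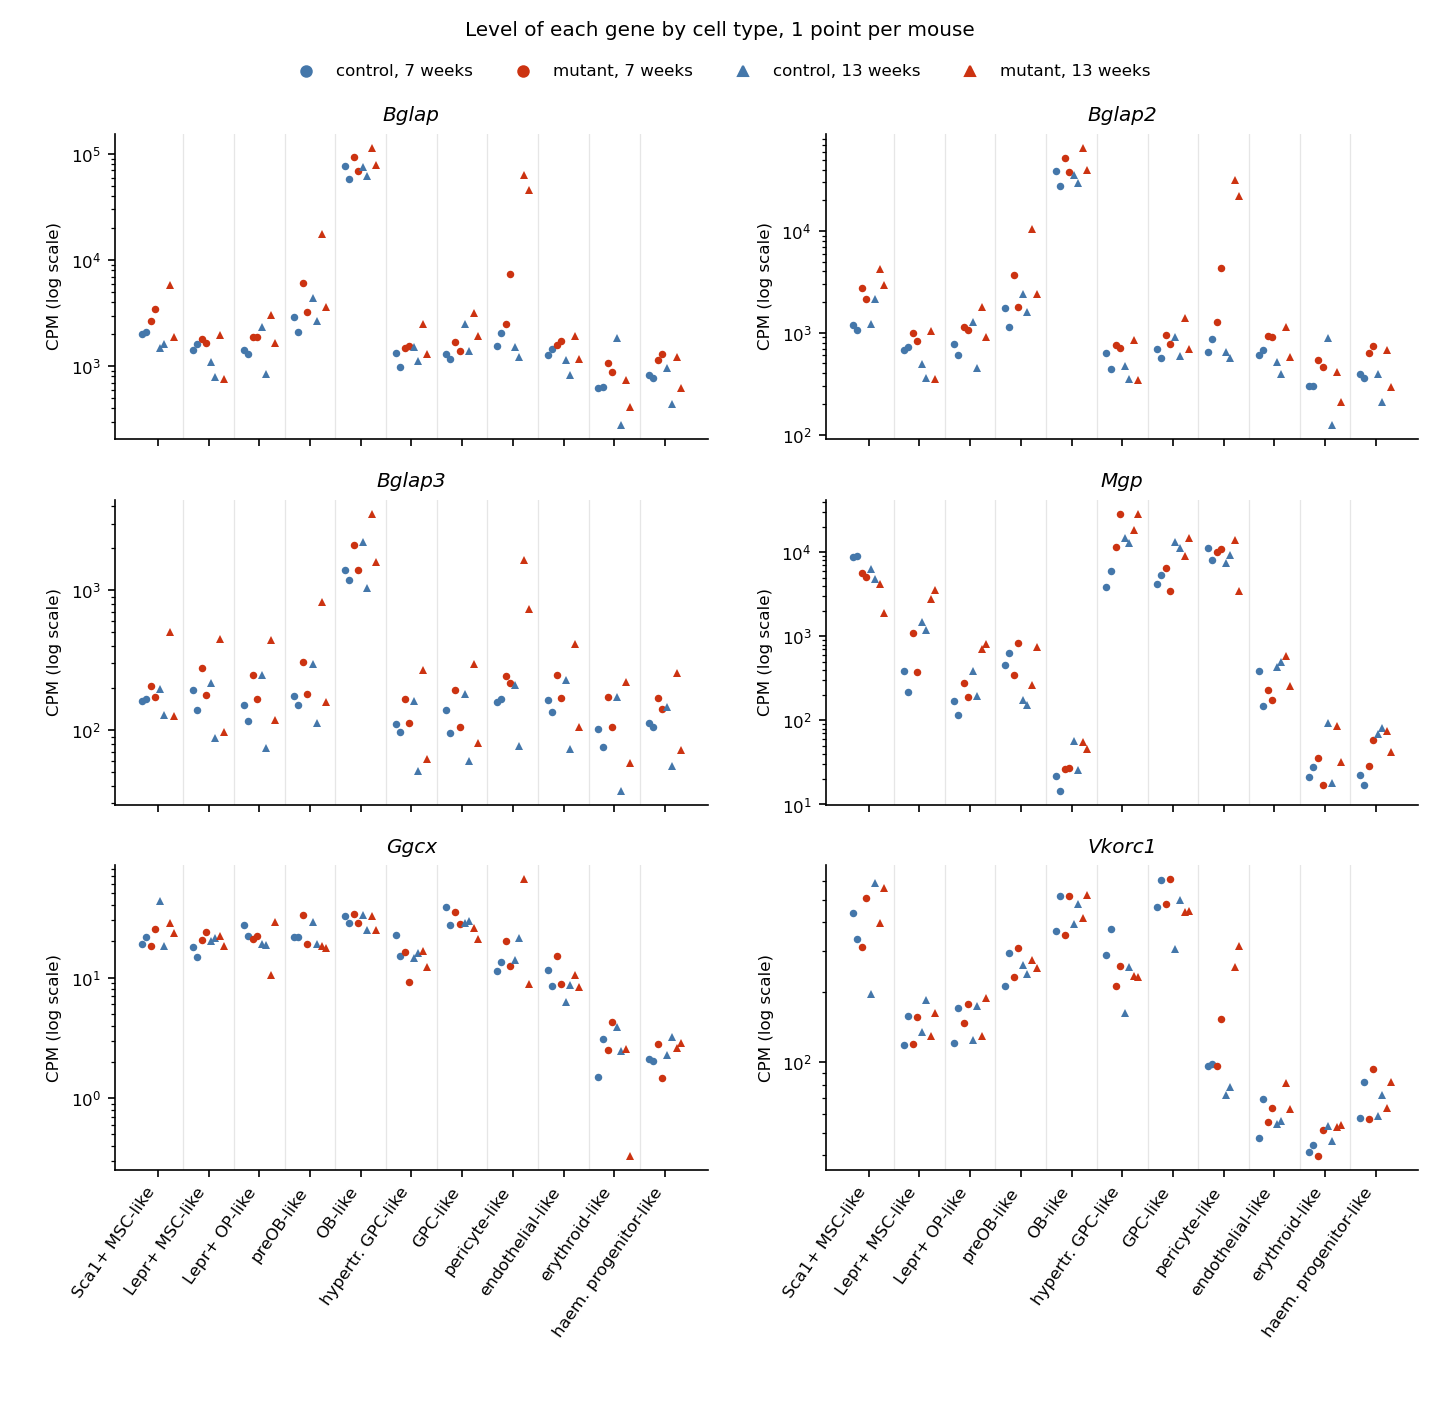
Level of each of the 6 genes in the 11 cell types, in CPM on a log axis, with 1 point per mouse, colours for genotype and shapes for age. Osteocalcins peaked in OB-like cells, with a control mean of 68293 CPM for Bglap, Mgp was high in 4 other types, and Ggcx and Vkorc1 spanned the skeletal types at lower levels.

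Osteocalcin expression also differed among the 7 clusters that made up the OB-like cells. Bglap was lowest in a cluster led by collagen genes (Col22a1, Col1a1, Col1a2), with a median over 8 mice of 41403 CPM. Next was a cluster led by Gm41724, Ptprz1, Phex, Pdpn and Dmp1, the last 3 of them genes of cells becoming osteocytes, with 53809 CPM. It was highest in a cluster led by Bglap itself, Bglap2 and Prss35, with 94663 CPM. Among single OB-like cells thinned to 2000 UMIs, the median cell held 146 and 112 Bglap UMIs in the 7-week controls, 178 and 135 in the 7-week mutants, 132 and 112 in the 13-week controls and 217 and 149 in the 13-week mutants. The 10th percentile of these cells ran from 14 to 74 Bglap UMIs across the 8 mice, and the 90th percentile from 183 to 332.

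Osteocalcin UMIs were also found in cells that are not known to make it. Erythroid-like cells, at a median depth of 6023 to 32596 UMIs per mouse, had a Bglap UMI in 95.3% to 100% of cells. Thinned to 2000 UMIs, 42.1% to 83.1% of erythroid-like and 70.9% to 96.7% of endothelial-like cells had one, against 99.7% to 100% of OB-like cells. RNA released by broken cells can enter any droplet, and the levels in these types are given as a reference for the other types, with the part of such free RNA in them not tested. The mean Bglap UMIs per cell had a median over the 8 mice of 16.1 in erythroid-like cells and 1292 in OB-like cells.

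As a percentage of the OB-like UMIs per cell of the same mouse, erythroid-like Bglap was 1.08% at the median mouse (range 0.809% to 2.33%, n = 8). Bglap2 was alike at 1.02%, while Bglap3 was 8.04%. In endothelial-like cells the medians were 0.585% for Bglap, 0.577% for Bglap2 and 4.01% for Bglap3. Other RNAs abundant in OB-like cells gave shares near those of Bglap, with 1.85% for Col1a1, 1.77% for Col1a2 and 1.79% for Ibsp in erythroid-like cells, whereas Spp1 stood at 12.9%. Spp1 was low in OB-like cells, at 262 CPM in controls, against 15518 CPM in preOB-like cells, so its share is set against a low level. The share of Bglap in erythroid-like cells averaged 1.55% in controls and 1.17% in mutants. The exact permutation test within ages, two-sided, gave p = 0.389 (adjusted p = 0.508 over 8 tests, smallest possible p = 0.0556).

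**Figure D2:**
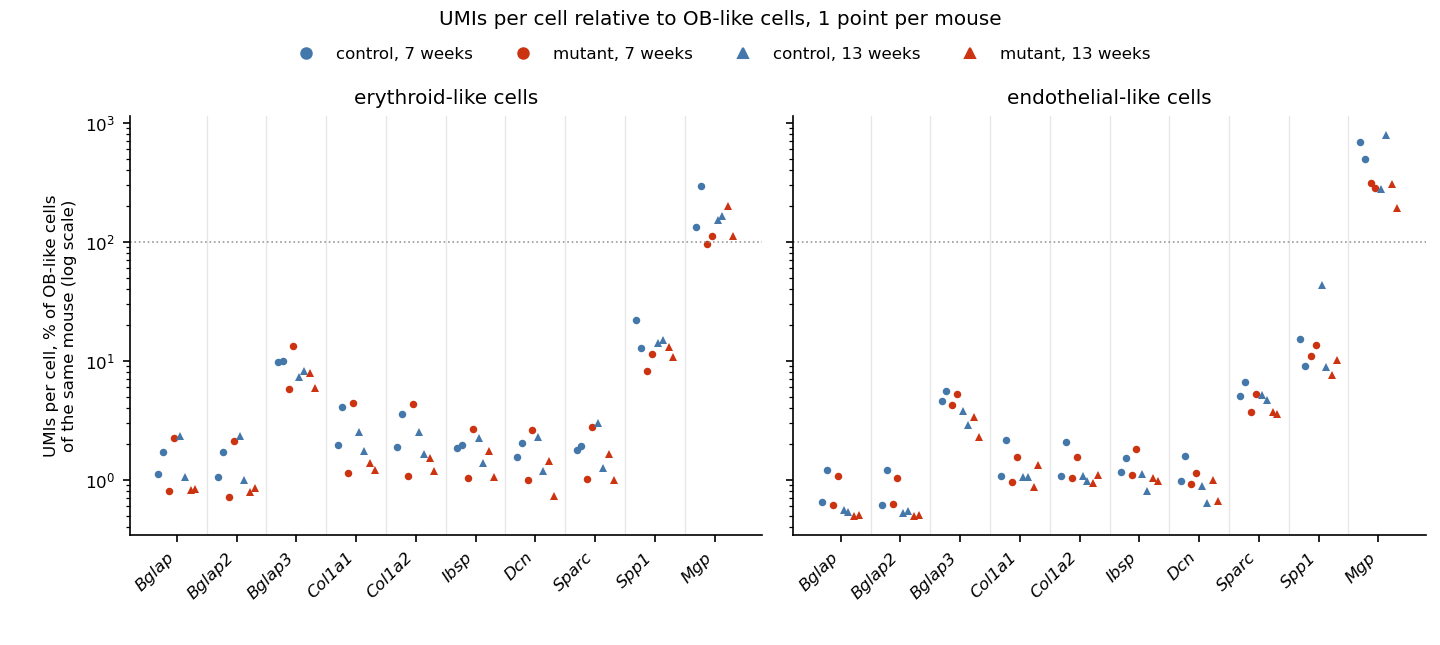
Osteocalcin and other osteoblast RNAs in erythroid-like and endothelial-like cells, as a percentage of the UMIs per OB-like cell of the same mouse on a log axis, with 1 point per mouse and a dotted line at 100%. In erythroid-like cells the medians were 1.08% for Bglap and 8.04% for Bglap3, and the points of Mgp lie around or above the level of OB-like cells.

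The 3 osteocalcins therefore did not keep 1 ratio across types. Bglap2 had 0.503 UMIs per Bglap UMI in OB-like cells (median of 8 mice, range 0.47 to 0.574) and 0.49 in erythroid-like cells. In preOB-like cells the ratio was 0.593, above that of erythroid-like cells in 8 of 8 mice, and in Sca1+ MSC-like cells it was 0.782, again higher in 8 of 8 (exact sign-flip permutation test, two-sided, adjusted p = 0.0391 for each). The Sca1+ MSC-like ratio ranged from 0.50 to 1.57 over the mice, which had 15 to 158 such cells. The 10 of these cells richest in osteocalcin held 23.9% to 95.5% of a mouse's Sca1+ MSC-like osteocalcin UMIs. Bglap3 had 0.0202 UMIs per Bglap UMI in OB-like cells (range 0.0167 to 0.031), 0.0535 in preOB-like, 0.0972 in Lepr+ OP-like, 0.132 in Lepr+ MSC-like, 0.114 in endothelial-like and 0.136 in erythroid-like cells. OB-like cells were below erythroid-like cells in 8 of 8 mice, with a difference of -2.73 ± 0.50 log2 units (SD, n = 8, exact sign-flip permutation test, two-sided, adjusted p = 0.026). Within the OB-like cells the ratio was 0.0197 to 0.0201 in 6 of the 7 clusters and 0.0328 in the collagen-led cluster. Between genotypes the Bglap2 ratio in OB-like cells was 0.19 log2 units higher in mutants. The exact two-sided permutation test within ages gave p = 0.0556 (adjusted p = 0.102), the smallest p that this design allows, so no difference could reach 0.05. The same smallest p was reached, with a higher ratio in mutants, in Lepr+ MSC-like, Lepr+ OP-like, pericyte-like, endothelial-like and erythroid-like cells (0.14 to 0.26 log2 units).

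**Figure D3:**
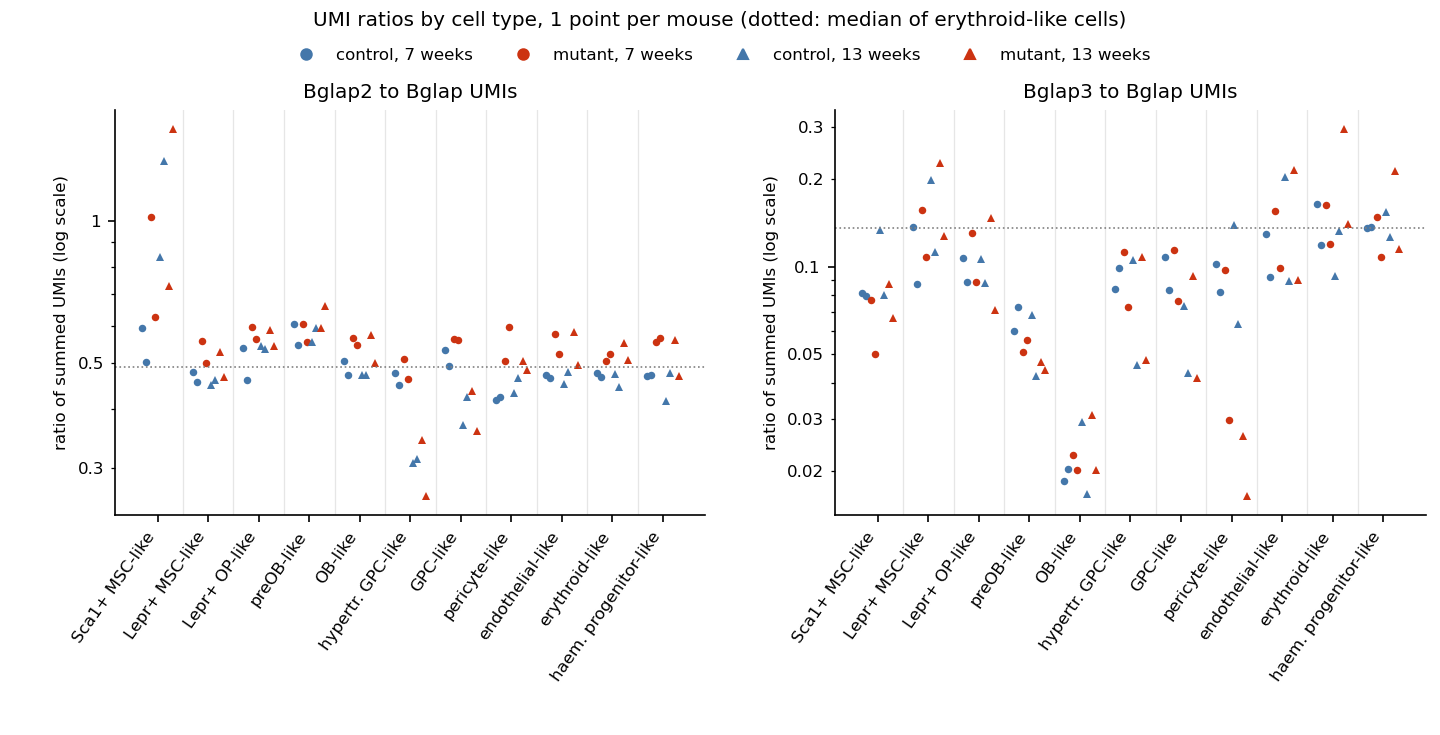
UMIs of Bglap2 and of Bglap3 per Bglap UMI in each cell type on a log axis, with 1 point per mouse and a dotted line at the median of erythroid-like cells. The Bglap2 ratio in OB-like cells lay close to that line, whereas the Bglap3 ratio was lowest in OB-like cells at 0.0202 and highest in erythroid-like and haematopoietic progenitor-like cells at 0.136.

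The mutants were compared with controls to ask whether loss of the SOXC genes in the osteoblast lineage altered osteocalcin expression. In OB-like cells Bglap stood at 76631 and 58456 CPM in the 7-week controls, 92819.5 and 69723 in the 7-week mutants, 75724 and 62362 in the 13-week controls and 114444 and 79636 in the 13-week mutants (replicates 1 and 2). Each mutant exceeded the control of its age and replicate number, but replicate 2 of the 7-week mutants lay within the range of the controls, so the genotypes overlapped. Bglap2 stood at 38676 and 27492 CPM and 52496 and 38134 CPM at 7 weeks, and at 35691 and 29339 CPM and 65674 and 39882 CPM at 13 weeks, controls first. Bglap3 stood at 1410.4 and 1188 CPM and 2101 and 1399.6 CPM at 7 weeks, and at 2224 and 1041 CPM and 3545 and 1599.9 CPM at 13 weeks. Both were higher in 4 of 4 pairs of the same age and number, with overlap between the genotypes. The highest value of each of the 3 genes was in replicate 1 of the 13-week mutants.

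Averaged over the ages, the log2 difference of mutants from controls in OB-like cells was 0.48 ± 0.23 (SE) for Bglap, 0.68 ± 0.24 (SE) for Bglap2 and 0.65 ± 0.31 (SE) for Bglap3, and none passed edgeR's quasi-likelihood test (Benjamini-Hochberg adjusted p = 0.481, 0.294 and 0.495), which called 1.39% of the genes tested. Mice of the same age and number deviated together in OB-like cells, and with these pairs as a block (the replicate block) all 3 osteocalcins rose, by 0.47, 0.66 and 0.62 on the log2 scale (adjusted p = 0.0147, 0.0039 and 0.00169). The blocked fit called 9.42% of the genes tested. DESeq2 without the block called Bglap2 (log2 difference 0.68, adjusted p = 0.0132). Without the block the p-values measure the spread between single mice. With it they measure the spread of the differences within pairs of the same age and number. As replicate 1 was the deeper library in each group, the block cannot tell a shared litter from depth. The summed level of the 15 OB markers in OB-like cells ran from 11232 to 13500 CPM in controls and from 9384 to 11195 CPM in mutants. It was lower in mutants in 4 of 4 pairs, and the ranges did not overlap but nearly met, at 11232 and 11195 CPM. CPM is a share of all UMIs, so a larger osteocalcin share lowers the CPM of other genes. The marker difference and the part of this in it were not tested.

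The difference was not confined to 1 cluster of OB-like cells. Bglap was higher in mutants in 4 of 4 pairs in each of the 7 clusters. The clusters come from the same mice, and the share of all genes with such a pattern was not counted. In the collagen-led cluster controls ranged from 29882 to 40944 CPM and mutants from 41863 to 63499 CPM, with no overlap. The genotypes overlapped in every other cluster. In the cluster of highest Bglap, controls ranged from 72172 to 99924 CPM and mutants from 83242 to 135190 CPM, which overlapped. The share of OB-like cells in each of the 7 clusters overlapped between the genotypes. The largest cluster, for example, held 29.3% to 32.7% of the OB-like cells in controls and 26.7% to 35.7% in mutants.

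**Figure D4:**
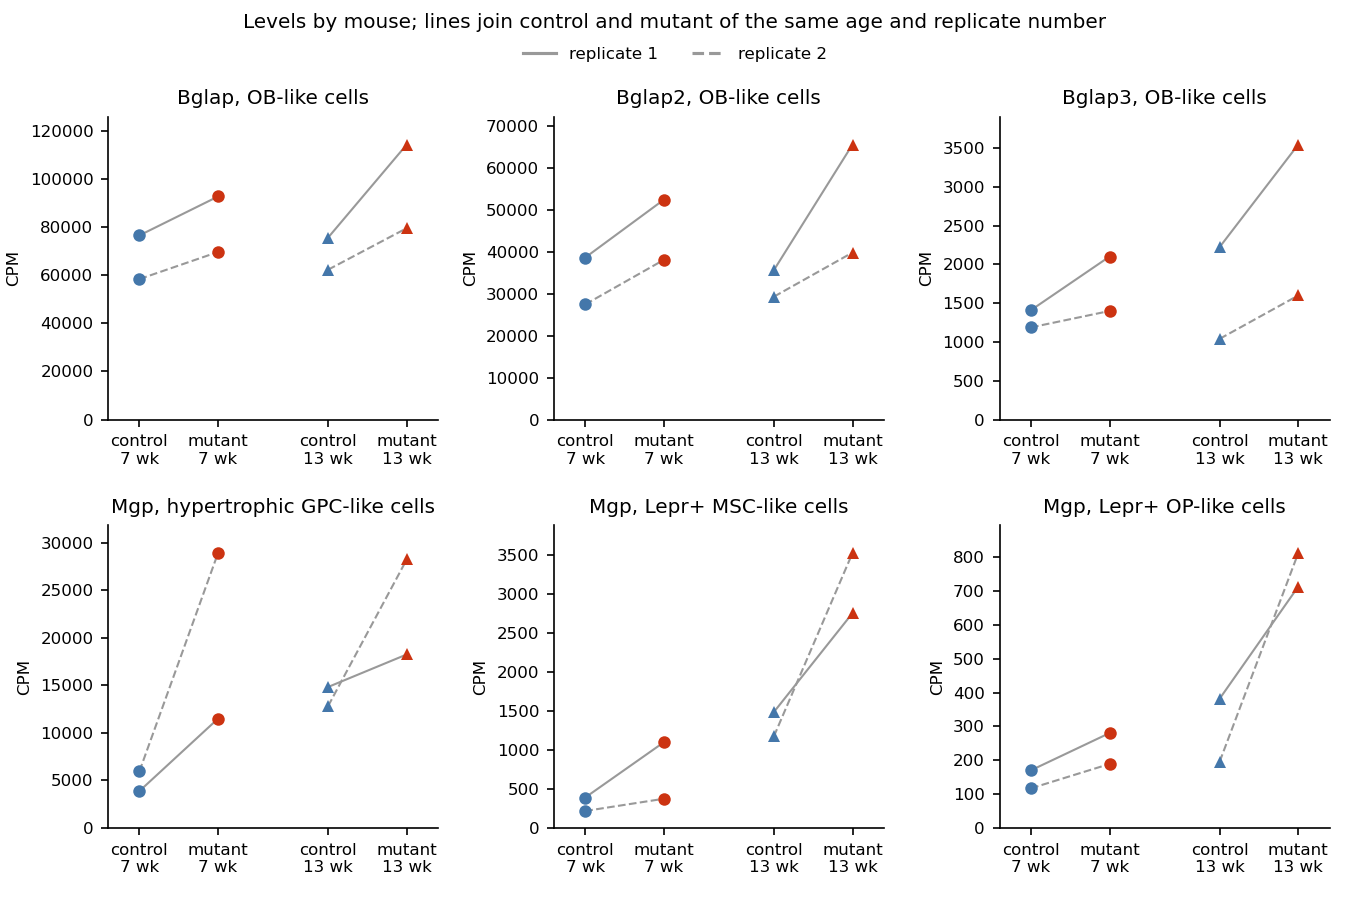
Level by mouse of the osteocalcins in OB-like cells (top) and of Mgp in 3 cell types (bottom), in CPM from 0, with lines joining the control and the mutant of the same age and replicate number. In OB-like cells the 4 lines of each osteocalcin go up from control to mutant. For Bglap and Bglap2, only replicate 2 of the 7-week mutants stays within the range of the controls. For Bglap3, all mutants but the highest lie within the range of the controls.

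PreOB-like cells gave the same direction with more scatter. Bglap stood at 2916 and 2083 CPM in the 7-week controls, 6044 and 3228 in the 7-week mutants, 4379 and 2686 in the 13-week controls and 17556 and 3621 in the 13-week mutants. Replicate 1 of the 13-week mutants was far above the rest, and replicate 2 of both mutant groups lay within the range of the controls. The log2 difference was 1.24 ± 0.38 (SE) for Bglap (adjusted p = 0.239), 1.29 ± 0.37 (SE) for Bglap2 (adjusted p = 0.182) and 0.91 ± 0.40 (SE) for Bglap3 (adjusted p = 0.518), where 0.694% of genes were called. With the replicate block all 3 rose, by 1.03, 1.10 and 0.80 (adjusted p = 0.00773, 0.00368 and 0.005), against 3.13% of genes. Without replicate 1 of the 13-week mutants the unblocked difference of Bglap was 0.48, and without replicate 2 of that group it was 1.60 (adjusted p = 0.011), which passed. After subtracting free RNA, taken as the mean of the erythroid-like cells of the mouse, at least 1 mouse kept under 3 UMIs of Bglap and of Bglap3, so these gave no value, and the difference of Bglap2 was 1.91 (adjusted p = 0.567). Endothelial-like cells, with a lower median share of the OB-like Bglap level, were not used as the reference. Whether the missing values depend on that choice was not tested. The median preOB-like cell held 29, 14, 34 and 11 osteocalcin UMIs in the controls and 44, 14, 62 and 16 in the mutants. The 10 cells richest in osteocalcin held 17.7% to 39.2% of a mouse's preOB-like osteocalcin UMIs.

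In Lepr+ OP-like cells, which lie before preOB-like cells in the lineage, the osteocalcins passed only with the replicate block. Bglap rose by 0.56 (adjusted p = 0.00515), Bglap2 by 0.70 (adjusted p = 0.000257) and Bglap3 by 0.68 (adjusted p = 9.42e-05), where the block called 3.57% of genes. Bglap and Bglap2 gave no value in these cells after subtracting free RNA. In Lepr+ MSC-like cells Bglap3 alone of the 3 passed, also only with the block (0.54, adjusted p = 0.0324, against 1.64% of genes). Blood cells, which are not known to make osteocalcin, gave calls with the block too. In haematopoietic progenitor-like cells Bglap, Bglap2 and Bglap3 rose by 0.54, 0.77 and 0.62 with the block (adjusted p = 0.00597, 0.000843 and 0.0153), where 0.187% of genes were called. In erythroid-like cells Bglap3 alone of the 3 was called with the block, by 0.57 (adjusted p = 0.00361, against 0.26% of genes). The 3 genes together made up 0.103% and 0.102% of erythroid-like UMIs in the 7-week controls and 0.178% and 0.144% in the 7-week mutants. At 13 weeks their share was 0.291% and 0.0441% in controls and 0.137% and 0.068% in mutants, so replicate 1 was lower in the mutant. In endothelial-like cells the 3 genes were higher in 4 of 4 pairs with no call, by 0.47, 0.71 and 0.61 without the block. In Sca1+ MSC-like cells, 15 to 158 per mouse, the 3 genes together made up 0.290% to 0.388% of UMIs in controls and 0.497% to 1.05% in mutants. None of the 3 was called there with or without the block, where 0.0253% of genes were called. Over the 11 types without the block, the difference was above 0 in 10 for Bglap (lowest -0.12) and in 11 each for Bglap2 and Bglap3. The types share their mice, and in types at the level of the blood cells, expression and free RNA cannot be told apart.

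**Figure D5:**
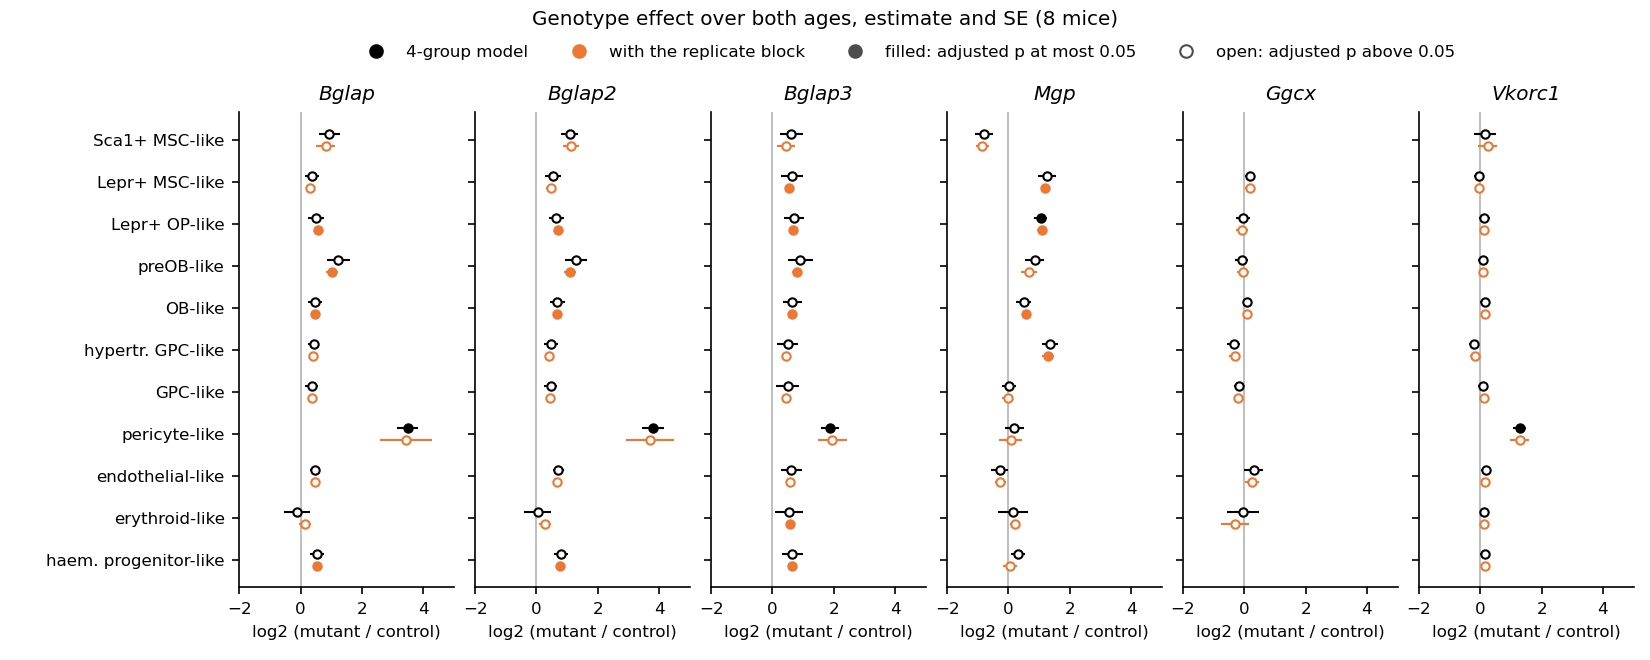
Difference between SOXCOsxCre and control mice in log2 units over both ages for the 6 genes in the fitted cell types, without (black) and with (orange) the replicate block, with bars of 1 SE and filled points for an adjusted p at most 0.05. Osteocalcin differences lie above 0 in nearly all types, the pericyte-like values stand apart, and Ggcx and Vkorc1 lie near 0 in the osteogenic types.

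Pericyte-like cells, the smooth muscle type wrapped around vessels, gave the largest fitted osteocalcin differences. Bglap stood at 1559.8 and 2057 CPM in the 7-week controls, 2501 and 7323 in the 7-week mutants, 1504 and 1216 in the 13-week controls and 62847 and 45315 in the 13-week mutants, so that the 13-week mutants stood apart. The log2 difference was 3.49 ± 0.34 (SE) for Bglap (adjusted p = 8.19e-06), 3.79 ± 0.36 (SE) for Bglap2 (adjusted p = 8.19e-06), 1.87 ± 0.29 (SE) for Bglap3 (adjusted p = 0.0012) and 1.28 ± 0.22 (SE) for Vkorc1 (adjusted p = 0.00239), where 0.973% of genes were called. With the replicate block, which called 0.0898% of genes, none of the 4 passed (adjusted p = 0.165, 0.0953, 0.165 and 0.165). At 13 weeks alone the differences were 5.54, 5.68, 3.25 and 2.17, against 1.75% of genes called. Bglap and Bglap2 also passed between the ages over both genotypes (1.67 ± 0.32 (SE), adjusted p = 0.0146, and 1.61 ± 0.33 (SE), adjusted p = 0.0239, with 0.599% of genes called). Both age calls were lost without replicate 1 of the 7-week mutants (1.36 and 1.27) or replicate 1 of the 13-week controls (1.59 and 1.56).

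Those pericyte-like values rested on very few cells. Replicate 1 of the 13-week mutants had 29 pericyte-like cells, of which 1 held 63.6% of the osteocalcin UMIs, and replicate 2 had 42, of which 1 held 52%, whereas the top cell of a control held 3.11% to 26.1%. In the 7-week mutants the top cell held 14.6% in replicate 1, of 50 cells, and 46.5% in replicate 2, of 174 cells. The median pericyte-like cell held 14 and 4 osteocalcin UMIs in the 13-week mutants, within the 4 to 11 of the controls except for the first. Above the 90th percentile of osteocalcin UMIs in the erythroid-like cells of the same mouse lay 2 of 29 and 4 of 42 pericyte-like cells of the 13-week mutants, 3 of 50 and 3 of 174 in the 7-week mutants, 0 of 70 and 7 of 232 in the 7-week controls and 4 of 163 and 6 of 199 in the 13-week controls. The share was larger in both 13-week mutants than in any control. The summed OB markers moved with the osteocalcins. Their level was 3749 and 4169 CPM in the 13-week mutants and 295 to 649 CPM in the controls, and the osteoblast genes Ibsp, Col1a1, Col1a2, Dcn and Sparc were called in pericyte-like cells too. There were 0.0262 and 0.0164 Bglap3 UMIs per Bglap UMI in the pericyte-like cells of the 13-week mutants, close to the OB-like ratio, and 0.0634 to 0.139 in those of the controls. After subtracting free RNA none of the 3 osteocalcins gave a value in pericyte-like cells. With doublets kept, the Bglap difference was 0.84 (adjusted p = 0.554). The part of osteoblasts captured with pericytes in these values was not tested.

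Mgp had another distribution than the osteocalcins. The highest control means were in hypertrophic GPC-like cells (9372 ± 5270 CPM, SD, n = 4), pericyte-like cells (8976 ± 1664 CPM), GPC-like cells (8486 ± 4373 CPM) and Sca1+ MSC-like cells (7251 ± 2028 CPM). Neighbours among these 4 did not differ beyond their spread over 8 mice (exact sign-flip permutation test, adjusted p = 0.641 to 0.656). Lepr+ MSC-like cells followed at 818 ± 611 CPM. Sca1+ MSC-like cells exceeded them in 7 of 8 mice, by 2.48 ± 2.04 log2 units (SD), without passing (exact permutation test, adjusted p = 0.0781). Lepr+ MSC-like cells exceeded endothelial-like cells in 8 of 8 mice, by 1.62 log2 units (exact permutation test, adjusted p = 0.0391). Lepr+ OP-like cells, at 216 ± 115 CPM, exceeded haematopoietic progenitor-like cells in 8 of 8 mice with the same adjusted p.

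OB-like cells were at the bottom of the Mgp order, at 29.8 ± 18.9 CPM, a level that could not be told from the 40 ± 35.7 CPM of erythroid-like cells (log2 difference 0.12, exact permutation p = 0.586). Per cell, erythroid-like cells held a median of 143% and endothelial-like cells 309% of the Mgp UMIs of an OB-like cell. After thinning to 2000 UMIs, 88.7% to 97.2% of OB-like cells had no Mgp UMI. The Mgp UMIs of a mouse came mostly from GPC-like (median 44.1%) and hypertrophic GPC-like cells (37.2%), and 1.31% came from OB-like cells, the most numerous type. At this level expression and free RNA cannot be told apart in OB-like cells. With the replicate block it passed between genotypes there (0.56, adjusted p = 0.0279, without the block 0.51 ± 0.24 (SE), adjusted p = 0.489), at that same level.

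Mgp rose in the Lepr+ OP-like cells of the mutants. It stood at 170.4 and 117 CPM in the 7-week controls, 281 and 189 in the 7-week mutants, 382 and 196 in the 13-week controls and 713 and 812 in the 13-week mutants. Every mutant was above both controls of its age, and the 7-week mutants overlapped with the 13-week controls. The log2 difference was 1.05 ± 0.20 (SE) (edgeR's quasi-likelihood test, adjusted p = 0.0165), where 0.712% of genes were called, and 1.10 with the replicate block (adjusted p = 9.98e-05). Leaving out 1 mouse at a time gave 0.85 to 1.32, with adjusted p up to 0.0889 and the call lost without replicate 2 of the 7-week controls, replicate 1 of the 7-week mutants or replicate 2 of either 13-week group. Markers of pericytes and hypertrophic GPC, both rich in Mgp, were summed in the same cells. Those of GPC-like, Sca1+ MSC-like and Lepr+ MSC-like cells were not summed there. The summed pericyte markers were 194 to 307 CPM in controls and 124 to 267 CPM in mutants, lower in mutants in 4 of 4 pairs. The summed hypertrophic GPC markers were 77.4 to 173 CPM and 81 to 135 CPM, higher in mutants in 3 of 4 pairs with overlap, and their part in the result was not tested.

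Lepr+ MSC-like cells, which make much of the marrow stroma, gave a similar difference. Mgp stood at 391 and 218 CPM and 1099.6 and 375 CPM at 7 weeks, and at 1488 and 1176 CPM and 2756 and 3527 CPM at 13 weeks, controls first. Mutants were higher in 4 of 4 pairs, while replicate 2 of the 7-week mutants lay just below replicate 1 of the 7-week controls. The log2 difference was 1.27 ± 0.29 (SE) and did not pass without the block (adjusted p = 0.133, with 0.225% of genes called), and with the block Mgp rose by 1.21 (adjusted p = 0.000216). Without replicate 2 of the 7-week mutants the unblocked difference was 1.56 and passed (adjusted p = 0.0119).

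In hypertrophic GPC-like cells, the enlarged chondrocytes at the bone side of the growth plate, Mgp rose in the 7-week mutants. It stood at 3882 and 5965 CPM in the 7-week controls and 11496 and 28904 CPM in the 7-week mutants, with no overlap, and at 14819.9 and 12820 CPM and 18239.9 and 28221 CPM at 13 weeks. At 7 weeks the log2 difference was 1.97 ± 0.37 (SE) (adjusted p = 0.0366, with 0.156% of genes called), and at 13 weeks 0.75 ± 0.36 (SE) (adjusted p = 1). Leaving out 1 mouse at a time gave 1.16 to 2.49 at 7 weeks, and the call was lost without either 7-week control or without replicate 2 of the 7-week mutants. The change of the effect with age, -1.22 ± 0.51 (SE), did not pass (adjusted p = 1). Averaged over the ages the difference was 1.36 ± 0.26 (SE) and just missed the threshold (adjusted p = 0.0633, with 0.0293% of genes called), which it passed without replicate 1 of the 7-week mutants (1.62) or of the 13-week mutants (1.51). The summed hypertrophic GPC markers were 37359 and 39215 CPM in the 7-week controls and 49116 and 47592 CPM in the 7-week mutants. At 13 weeks they were 31654 and 32253 CPM in controls and 29007 and 23347 CPM in mutants. The marker list was thus higher in mutants at 7 weeks and lower at 13 weeks, and its part in the Mgp result was not tested. Sox4 did not pass in these cells, at 0.10 over both ages (adjusted p = 0.997) and 0.58 at 7 weeks (adjusted p = 0.84). In Sca1+ MSC-like cells Mgp was lower in mutants in 4 of 4 pairs (-0.80 ± 0.28 (SE)) without passing (adjusted p = 0.496), and in GPC-like cells the difference was 0.03 ± 0.22 (SE).

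Mgp was called in 4 of 11 types between the ages, against 1 between the genotypes averaged over the ages, and with the replicate block in 8 and 4. The blocked age fits of those 8 types called 0.135% to 16.2% of genes, and the blocked genotype fits of the 4 types 0.166% to 9.42%. In the 4 types called for age without the block, all genes were also called more often for age than for genotype. The shares were 8.35% and 0.0293% in hypertrophic GPC-like and 5.75% and 0% in GPC-like cells. They were 1.09% and 0.712% in Lepr+ OP-like and 0.372% and 0.225% in Lepr+ MSC-like cells. Beside the types described next, Mgp fell in preOB-like cells by 0.90 on the log2 scale with the block (adjusted p = 0.00967), and rose in endothelial-like cells by 0.99 (adjusted p = 0.0163) and in haematopoietic progenitor-like cells by 1.28 (adjusted p = 0.0312). The control mean of the progenitor-like cells, 47.4 CPM, could not be told from the 40 CPM of erythroid-like cells (exact sign-flip permutation test, adjusted p = 0.651). Between 7 and 13 weeks, over both genotypes, Mgp rose in Lepr+ MSC-like cells by 2.13 ± 0.29 (SE) on the log2 scale (adjusted p = 0.00674, with 0.372% of genes called) and in Lepr+ OP-like cells by 1.36 ± 0.21 (SE) (adjusted p = 0.00281, 1.09% of genes). It rose in GPC-like cells by 1.35 ± 0.23 (SE) (adjusted p = 0.00852, 5.75% of genes), where the values were 4201 and 5394 CPM in controls and 6534 and 3493 CPM in mutants at 7 weeks, and 13235 and 11113 CPM and 8965 and 15007 CPM at 13 weeks. The ages did not overlap in GPC-like or in Lepr+ MSC-like cells. In hypertrophic GPC-like cells Mgp rose by 0.86 ± 0.25 (SE) (adjusted p = 0.0454), but 8.35% of genes were called there. In OB-like cells, at the level of erythroid-like cells, the difference was 1.04 ± 0.24 (SE) (adjusted p = 0.0697, with 1.78% of genes called) and passed with the replicate block (1.01, adjusted p = 0.013) or without replicate 2 of the 13-week controls (1.27). No osteocalcin passed between the ages in OB-like cells, where the log2 difference was 0.13 ± 0.23 (SE) for Bglap (adjusted p = 0.877), 0.08 ± 0.24 (SE) for Bglap2 (adjusted p = 0.929) and 0.43 ± 0.31 (SE) for Bglap3 (adjusted p = 0.623). Leaving out each mouse in turn, an alternative chosen after seeing the data, gave 1.84 to 2.61 in Lepr+ MSC-like cells (adjusted p up to 0.0488) and 1.09 to 1.56 in Lepr+ OP-like cells (adjusted p up to 0.0132), all past the threshold. In GPC-like cells it gave 1.13 to 1.63, with the call lost without replicate 1 of the 7-week controls (adjusted p = 0.0525). The hypertrophic GPC-like call was lost without replicate 1 of the 7-week controls or mutants, either 13-week control or replicate 2 of the 13-week mutants, with values from 0.60 to 1.26. The age groups were separate mice, and litter or processing day cannot be told apart from age in them.

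The carboxylation enzymes were spread over the skeletal types without the steep gradient of their substrates. Ggcx, the carboxylase, had control means of 31.1 ± 5.09 CPM in GPC-like cells and 29.8 ± 3.97 CPM in OB-like cells (SD, n = 4), and it was lowest, at 2.75 and 2.41 CPM, in erythroid-like and haematopoietic progenitor-like cells. No neighbouring pair passed for Ggcx, and 3 of 10 had an unadjusted p under 0.05. The nearest were pericyte-like over endothelial-like and endothelial-like over erythroid-like cells (exact permutation test, adjusted p = 0.0781 for each), the second in 8 of 8 mice by 1.65 log2 units. Vkorc1, the reductase, was highest in GPC-like (468 ± 123 CPM), OB-like (439 ± 71.1 CPM) and Sca1+ MSC-like cells (391 ± 166 CPM), whose order was within the spread. Vkorc1 in preOB-like cells (253 CPM) exceeded Lepr+ MSC-like cells (149 CPM) in 8 of 8 mice, and pericyte-like exceeded haematopoietic progenitor-like and endothelial-like exceeded erythroid-like cells in 8 of 8 (exact permutation test, adjusted p = 0.026 for each). OB-like cells held a median of 75.1% of a mouse's Ggcx UMIs and 76.4% of its Vkorc1 UMIs, less than their share of the osteocalcins.

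Neither enzyme passed between genotypes in OB-like cells. Ggcx stood at 32.5 and 28.7 CPM in the 7-week controls, 33.6 and 28.3 in the 7-week mutants, 33.3 and 24.7 in the 13-week controls and 32.5 and 25 in the 13-week mutants, nearly the same values in the control and the mutant of each age and replicate number. Vkorc1 stood at 366 and 518, 352 and 519, 393 and 477 and 418 and 523 CPM in the same order. In contrast to the osteocalcins, Vkorc1 was higher in replicate 2 than in replicate 1 of each group. The log2 difference was 0.10 ± 0.15 (SE) for Ggcx (adjusted p = 0.916) and 0.14 ± 0.15 (SE) for Vkorc1 (adjusted p = 0.853). Neither passed in preOB-like cells, where the values were -0.08 ± 0.22 (SE) and 0.09 ± 0.17 (SE).

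Other genes of the pathway were read from lists chosen with earlier results known. Of all 14504 genes tested between genotypes in OB-like cells, 1.39% were called and 1623 had an unadjusted p under 0.05, so a count of 0 calls in such short lists is near the share over all genes. Of the 8 genes of the vitamin K cycle and carboxylation, all were tested in OB-like cells and 0 passed in either direction with edgeR or DESeq2 (0 at an unadjusted edgeR p under 0.05), with a median log2 difference of 0.11 against -0.00334 over all genes tested. Vkorc1l1, the paralogue of Vkorc1, differed by -0.04 (adjusted p = 0.949). Of 13 other Gla protein genes 6 were tested in OB-like cells and 0 passed with either tool (0 at an unadjusted p under 0.05). Gas6, the Gla ligand of the TAM receptors, was a stromal gene, at 2774 CPM in Lepr+ MSC-like, 1537 CPM in Lepr+ OP-like and 5 CPM in OB-like cells of control mice. It differed by 0.25 between genotypes in OB-like cells (adjusted p = 0.707), and Ucma, a Gla protein of growth plate chondrocytes, by -0.24 (adjusted p = 0.887). Of 5 receptor genes of Gla proteins 3 were tested and 0 passed (0 at an unadjusted p under 0.05).

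The 10 regulators of osteocalcin transcription were all tested in OB-like cells and 0 passed with edgeR or DESeq2 (0 at an unadjusted edgeR p under 0.05), against 1.39% of all genes called. Runx2, the master regulator of the osteoblast lineage, differed by 0.03 (adjusted p = 0.973) and Sp7 (Osterix) by -0.11 (adjusted p = 0.881). With the replicate block, which called 9.42% of genes in OB-like, 3.57% in Lepr+ OP-like and 1.64% in Lepr+ MSC-like cells, Cebpd, a C/EBP factor, rose in OB-like cells by 0.27 (adjusted p = 0.0135) and in Lepr+ OP-like cells by 0.36 (adjusted p = 0.0488). In a list of 6 bone matrix genes (Col1a1, Col1a2, Sparc, Ibsp, Dcn and Spp1), Spp1 (osteopontin) rose in hypertrophic GPC-like cells by 1.52 ± 0.24 (SE, adjusted p = 0.0308, with 0.0293% of genes called), the 1 call of these lists in the 7 skeletal types without the block. With the block Spp1 also rose in OB-like cells by 1.11 (adjusted p = 0.000206) and in Lepr+ OP-like cells by 0.74 (adjusted p = 0.0011), and Dcn rose in OB-like cells by 0.28 (adjusted p = 0.0482) and in Lepr+ MSC-like cells by 0.56 (adjusted p = 0.0119).

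The genes with the most similar pattern were sought among 11473 genes, by Pearson's r of log2(CPM + 1) over the 11 cell types, using the mean of the control mice. The types of a mouse share a library and its free RNA, so the values are a description. For Bglap they were Bglap2 (0.99), Bglap3 (0.98), Col24a1 (0.98), Cpz (0.97) and Kcnk1 (0.96). Cpz is also one of the markers that named the OB-like clusters. For Mgp they were Ift88 (0.93), Meg3 (0.93), Mfge8 (0.92), Clip1 (0.92) and Tubb2b (0.92), for Ggcx Zfp9 (0.99), Fkbp10 (0.99), Tceal8 (0.99), Crtap (0.98) and Fam114a1 (0.98), and for Vkorc1 Tmed3 (0.99), Ostc (0.98), Dap (0.98), Selenos (0.97) and Cnpy2 (0.97). Between the members, r was 0.85 for Ggcx with Vkorc1 and -0.30 for Bglap with Mgp.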

How the data were processed

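The authors deposited raw UMI counts per gene and cell barcode, made with Cell Ranger 6.1.2 on mm10 and analysed with Seurat 4.3 per the labels. Cells with 200 to 6000 genes and at most 10% mitochondrial UMIs were kept, doublets removed by a simulated-doublet neighbour score, and cells integrated with Seurat 5.3.0 (RPCA), clustered (Leiden, resolution 1) and named from marker lists. Counts were summed per type and mouse, and genotype and age were tested with edgeR 4.0.16 quasi-likelihood fits (TMM, 4 groups, adjusted p at most 0.05 by Benjamini-Hochberg over all genes tested). On simulated OB-like counts the fit recovered 74% of 2-fold changes. The osteocalcin differences in OB-like cells were smaller than 2-fold, and changes of that size were not simulated. The study describes sister pairs, which the labels do not tie to replicate numbers. Same-numbered mice deviated together (correlation over 0.1 at both ages) in 8 of 11 types, all but GPC-like, hypertrophic GPC-like and Sca1+ MSC-like cells. Replicate 1 was the deeper library in each group, so this check cannot tell a shared litter from depth. Fits with a replicate block are given beside results they change. For genotype the block was the pair of the same age and replicate number, and for age the replicate number. Types were compared within mice by exact sign-flip tests. Depth limits low genes. Members and lists were chosen with earlier results of these data known. Named are the 6 members, Sox4, list genes past the threshold in an osteogenic type with Gas6, Ucma, Vkorc1l1, Runx2 and Sp7, and the 5 genes most similar to each member; genes of clusters, shares and single cells were named after their values were seen. Alternatives were DESeq2 1.42.0, other scalings, no filter, leaving out mice, free RNA subtraction, thinning and other clusterings.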

Additional observations from a re-analysis of the deposited data

Results flagged for a closer look

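In pericyte-like cells the genotype difference of the osteocalcins changed between 7 and 13 weeks, by 4.09 ± 0.65 (SE) log2 units for Bglap (edgeR's quasi-likelihood test of the interaction, adjusted p = 0.00882), 3.79 ± 0.66 (SE) for Bglap2 (adjusted p = 0.00976) and 2.76 ± 0.58 (SE) for Bglap3 (adjusted p = 0.04), where 0.359% of the genes tested were called. These 3 were flagged as effects that differ between the ages. They rest on the 13-week mutants, with 29 and 42 pericyte-like cells, where 1 cell held 63.6% and 52% of the osteocalcin UMIs. None of the 3 passed without replicate 1 of the 7-week mutants or without replicate 2 of the 13-week controls.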

How the results depend on the processing

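Of 725 values recomputed under an alternative, 621 kept their direction and their side of the threshold or their size, 27 lost and 38 gained the threshold, 30 moved and 9 reversed. The causes were not tested. Without replicate 1 of the 13-week mutants 4 small genotype differences reversed. With 1 mouse left out, Bglap (from -0.027) and Bglap3 (-0.072 to 1.04) in Lepr+ MSC-like cells, Ggcx in OB-like cells (-0.031 to 0.24) and Bglap3 in hypertrophic GPC-like cells (-0.20 to 1.03) spanned 0. So did the age differences of Bglap2 (-0.16 to 0.26) and Bglap (-0.050 to 0.27) in OB-like cells. The age difference of Mgp ranged from 0.67 to 1.27 in OB-like, 0.60 to 1.26 in hypertrophic GPC-like and 1.13 to 1.63 in GPC-like cells, and in pericyte-like cells that of Bglap from 1.36 to 2.16 and of Bglap2 from 1.27 to 2.19.

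With the replicate block, the pairs of member and type called between genotypes, of 63 tested, went from 5 to 18, at 7 weeks from 1 to 4, at 13 weeks from 4 to 13, and between the ages from 6 to 13. The share of all genes called rose as well in most types, for genotype from 1.39% to 9.42% in OB-like and from 0.712% to 3.57% in Lepr+ OP-like cells. In OB-like cells it rose from 0.117% to 1.75% at 7 weeks and from 0.262% to 2.72% at 13 weeks. Between the ages it rose there from 1.78% to 4.12%. In OB-like cells the paired differences of Bglap (0.47), Bglap2 (0.66), Bglap3 (0.62) and Mgp (0.56) and the age difference of Mgp (1.01) gained the threshold. Those of Bglap (3.44), Bglap2 (3.71), Bglap3 (1.95) and Vkorc1 (1.28) in pericyte-like cells lost it. Over the 7 skeletal types the block called 1 regulator (Cebpd) in 2 types and 2 bone matrix genes, Spp1 in 3 types and Dcn in 2, against 0 regulators and Spp1 in 1 type without it. In hypertrophic GPC-like cells, whose numbers did not pair by the check, it gave 1.29 for Mgp (adjusted p = 0.0165).

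Without the filter on low counts 23 of 66 such pairs were called, where 0.131% to 3.23% of all genes were called per type, among them Bglap2 (0.68), Bglap3 (0.65) and Mgp (0.51) in OB-like cells. DESeq2 called Bglap2 in OB-like cells (0.68). With doublets kept, the pericyte-like differences were 0.84 for Bglap, 0.96 for Bglap2, 0.71 for Bglap3 and 0.57 for Vkorc1, no longer past the threshold. After thinning, Bglap3 (0.82) and Vkorc1 (0.29) in pericyte-like cells lost it as well.

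Mgp in Lepr+ OP-like cells missed the threshold with finer clusters (0.87) and a mitochondrial limit of 5% (1.13), and ranged from 0.85 to 1.32 when 1 mouse was left out. Vkorc1 in pericyte-like cells ranged from 1.07 to 1.40 and lost its call without replicate 2 of the 7-week mutants. The counts of member calls that follow are given without the share of all genes called in the same fits. They therefore cannot tell a change in the members from a change in the whole fit. Leaving out 1 mouse gave 0 to 1 calls at 7 weeks, 0 to 3 calls for the change of the genotype difference with age and 3 to 11 calls between the ages, where 6 were called with all mice. The 3 came without replicate 1 of the 7-week mutants or of the 13-week controls, and the 11 without replicate 2 of the 13-week mutants.

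Neighbouring cell types that differed fell from 12 to 7 after thinning and to 6 after subtracting free RNA. Without integration or with finer clusters, GPC-like cells had the highest Mgp. With doublets kept, the percentage of OB-like UMIs per cell was 2.57 (Bglap), 2.34 (Bglap2) and 10.7 (Bglap3) in erythroid-like cells and 1.90 (Bglap) and 1.79 (Bglap2) in endothelial-like cells. In the cells of low collagen counts it was 0.355 (Bglap), 0.293 (Bglap2), 1.92 (Bglap3) and 20.5 (Mgp) in erythroid-like and 2.21 (Bglap3) in endothelial-like cells. PreOB-like cells could not be compared without integration or with finer clusters, where their cells were named Lepr+ OP-like, and 15 pairs of gene and type had no value after free RNA subtraction, among them Bglap and Bglap3 in preOB-like, Bglap and Bglap2 in Lepr+ OP-like and all 3 osteocalcins in pericyte-like and hypertrophic GPC-like cells.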

Other observations

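Clusters of low UMI count were left out of the 11 types. A cluster with the OB markers and a median depth of 9.48% of the library median had 63102 CPM of Bglap at the median mouse and 0.0319 Bglap3 UMIs per Bglap UMI. A cluster that held both OB and growth plate markers, at 9.13% of the library median, had 33584 CPM of Bglap. Its Mgp level was 1089 to 22474 CPM in controls and 1426 to 27239.6 CPM in mutants, higher in 4 of 4 pairs with overlap, and this difference was not tested.

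Between 7 and 13 weeks 8.35% of all genes were called in hypertrophic GPC-like and 5.75% in GPC-like cells. The pathway lists gave 2 of 7 vitamin K genes, 1 of 5 other Gla protein genes, 0 of 1 receptor and 1 of 9 osteocalcin regulators in the former, and 0 of 8, 1 of 5, 0 of 2 and 0 of 10 in the latter. Calu, whose product inhibits carboxylation, and P4hb, a protein disulfide isomerase gene, fell by 0.56 (adjusted p = 0.0203) and 0.68 (adjusted p = 0.00745) on the log2 scale in hypertrophic GPC-like cells. Pros1, which encodes the Gla protein S, rose there by 1.05 (adjusted p = 0.00926) and in GPC-like cells by 0.79 (adjusted p = 0.0182). Dlx5, a homeodomain regulator of osteocalcin, rose in hypertrophic GPC-like cells by 0.49 (adjusted p = 0.0499).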
